A study of Mus musculus with 12 samples.

Results

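Genes of the smooth muscle contractile programme and of its regulator serum response factor were followed in cultures of mouse embryonic stem (ES) cells held under mTOR inhibition. The 10 genes (*Actg2*, *Acta2*, *Tagln*, *Cnn1*, *Myl9*, *Cald1*, *Tpm1*, *Tpm2*, *Thbs1* and *Srf*) were taken by symbol from the 54446 genes in the expression tables. They were chosen by their TPM over time, with their lower levels under mTOR inhibition already known. Their values over time are therefore given as a description and were not tested. The differences between the 2 cell lines were not the ground of the choice and were tested. The response of each line was known when the genes were chosen, so these tests are not fully independent of that choice. All 10 passed the filter on low values, a mean of at least 1 TPM (transcripts per 1000000 transcripts), which 15727 genes passed.

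Serum response factor, the product of *Srf*, is a transcription factor that binds a short DNA element called the CArG box. It works with partners of the myocardin family (MRTFs), which leave globular actin and enter the nucleus when actin polymerises, and with ternary complex factors of the Elk group, which respond to growth factor signalling through ERK. Through the MRTFs it drives genes of the contractile cytoskeleton, and through the Elk group it drives immediate early genes such as *Fos* and *Egr1*. Smooth muscle cells, myofibroblasts and cultured fibroblasts carry high levels of the contractile genes, and ES cells are not a typical source of them.

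The 12 RNA sequencing libraries held 2 lines at 3 times with 2 replicates each. Per the labels the lines are E14 KH, called KH here, and E14 DNMT3ABKO, a double knockout of Dnmt3a and Dnmt3b, the enzymes that set new DNA methylation. The study's methods name its wild-type line KH2 and say that KH2 and the double knockout were grown on mitotically inactivated feeder cells, and that living single cells were sorted before RNA was extracted. The same methods describe their E14 lines as grown without feeders, and the labels here put E14 before both names while the column headers of the KH tables read Kh2, so the sources conflict on whether feeder fibroblasts were in these cultures. The 0 h libraries are untreated control cultures, and the 72 h and 144 h libraries come from cells kept in the mTOR inhibitor Ink128 (mTORi) for that time. There were no untreated cultures at 72 h or 144 h, so time in culture and mTORi cannot be told apart, and each genotype is 1 line. The labels do not say whether replicates came from separate cultures. The study states in general that its experiments were repeated independently, without naming these libraries, and p-values measure the spread between the libraries, whatever its source.

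TPM are shares of a library's transcripts, scaled for transcript length, and each library summed to 1000000. They keep no sequencing depth, so no counting error can be given. The study, scaling to added RNA standards, reports a global decrease of transcription under mTORi in wild-type cells and in the double knockout. A higher TPM here is a higher share and need not be a higher amount per cell. *Dnmt3a* spanned 54.7 to 144 TPM over the 6 KH libraries and 7.35 to 21.9 TPM over the 6 DNMT3ABKO libraries, and *Dnmt3b* spanned 142 to 258 TPM and 12.7 to 27.5 TPM. The untreated DNMT3ABKO replicates stood further apart than those of any other group, with a residual SD over genes of 0.272 on the log2 scale against 0.133 to 0.176 in the other groups. All 8 ES cell markers were present, with a summed level of 3894 to 5938 TPM over the libraries. Markers of fibroblasts (18 genes) and macrophages (8 genes) were also present at 0 h. Fibroblast markers summed to 1482 to 1593 TPM in KH and 1737 to 1766 TPM in DNMT3ABKO at 0 h, to 418 to 427 and 324 to 364 TPM at 72 h, and to 79.2 to 83.0 and 82.7 to 86.0 TPM at 144 h. In bulk RNA, fewer cells of a type and less RNA per cell cannot be told apart.

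Promoter windows of these genes were searched for the CArG box. The set was put together as smooth muscle actin and serum response factor target genes, so matches in it are no independent support. The CArG box is a 10-base element of 2 C, then 6 bases that are each A or T, then 2 G, and it is its own reverse complement in form, so a search of 1 strand covers both. RefSeq promoter windows on GRCm38.p6, from 250 bases before to 50 bases after a gene's start, matched 7 of the 10 genes by symbol, in 8 windows. *Actg2*, *Tagln* and *Thbs1* were not matched. The exact element occurred in windows of 2 of the 7 genes, *Srf* and *Myl9*, and 3 of the 7 held the exact element or a form with 1 C or G among the 6 central bases, the third being *Acta2*. Over 32851 mouse promoter windows of this length, 1.63% held the exact element and 9.98% held either form. These shares are per window, while the counts above are per gene. A match is a description of letters in a window and not a site of binding.

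The stretches below show the elements in the regulator's own gene and in 2 contractile genes, with exact and 1-base variant CArG boxes in capitals, read 5′ to 3′ on the strand of the gene. Both *Acta2* stretches lie upstream of the RefSeq start and of the gene as the deposited tables place it. In a later GENCODE annotation each lies wholly inside an annotated exon. The overlap was taken over all exons of the chromosome, so the gene and strand of that exon are not given. The *Srf* stretch lies at chr17:46556183-46556282 (minus strand), the *Myl9* stretch at chr2:156775289-156775388 (plus strand), and the *Acta2* stretches at chr19:34255438-34255467 and chr19:34255388-34255417 (minus strand).
Srf: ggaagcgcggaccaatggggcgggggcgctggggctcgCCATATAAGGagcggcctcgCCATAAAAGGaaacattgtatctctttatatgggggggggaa
Myl9: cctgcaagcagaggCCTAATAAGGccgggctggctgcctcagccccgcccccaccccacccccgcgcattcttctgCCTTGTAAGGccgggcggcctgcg
Acta2, distal: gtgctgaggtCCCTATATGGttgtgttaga
Acta2, proximal: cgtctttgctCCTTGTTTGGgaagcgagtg
*Srf* held its 2 exact elements from -82 to -73 and from -62 to -53 relative to the start. *Myl9* held an exact element from -161 to -152 and a variant from -99 to -90, and *Acta2* held 2 variants, from -84 to -75 and from -34 to -25.

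The same element was found in windows of the wider gene families, including genes that kept most of their 0 h level. Of 16 actins, transgelins, calponins, tropomyosins, myosin light chains and thrombospondins outside the 10 genes, 15 matched a window, 5 held an exact element (*Actc1*, *Acta1*, *Cnn2*, *Myl6* and *Actg1*) and 7 held either form. The 5 with an exact element went different ways. At 144 h *Acta1* stood at 9.52% of its 0 h level in KH and 9.21% in DNMT3ABKO, and *Actc1*, which is near the floor, at 7.82% and 1.24%. *Myl6* stood at 84.5% and 84.7%. The cytoplasmic actin *Actg1* (chr11:120348556-120348625, minus strand) and the calponin *Cnn2* (chr10:79988510-79988579, plus strand) are shown because they hold an exact element and kept most of their 0 h level at 144 h.
Actg1: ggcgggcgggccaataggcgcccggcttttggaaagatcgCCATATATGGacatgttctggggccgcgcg
Cnn2: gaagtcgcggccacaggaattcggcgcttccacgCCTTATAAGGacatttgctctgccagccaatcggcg

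At 0 h the 10 genes ranged from the most abundant matrix transcripts of the set to moderately expressed ones. On the TPM scale in KH, mean levels ran from *Thbs1* (686 ± 62.7 TPM, SD, n = 2) and *Acta2* (572 ± 60.2 TPM) through *Tpm1* (365 ± 13.1 TPM), *Tagln* (339 ± 33.2 TPM) and *Cald1* (145 ± 1.02 TPM) to *Myl9* (112 ± 11.2 TPM), *Actg2* (108 ± 8.82 TPM), *Tpm2* (99.9 ± 2.46 TPM), *Srf* (70.3 ± 5.19 TPM) and *Cnn1* (39.4 ± 3.11 TPM). The libraries of *Tpm1* and *Tagln* overlapped, as did those of *Myl9* and *Actg2* and those of *Actg2* and *Tpm2*, so these neighbours do not differ beyond their spread. Summed over the 10 genes, the level was 2398 and 2675 TPM in KH at 0 h, 1287 and 1273 TPM at 72 h and 371 and 381 TPM at 144 h. In DNMT3ABKO the sums were 2312 and 2549 TPM, then 1029.7 and 935 TPM, then 329 and 313 TPM.

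Of the 10 genes, 9 were lower at each later time in both lines, and *Srf* was the exception. In KH, 10 of 10 genes had both 72 h libraries below both 0 h libraries, 9 of 10 did so at 144 h against 0 h, and 9 of 10 at 144 h against 72 h. The share of all 15727 tested genes with this pattern was 32.0%, 35.2% and 41.6%. In DNMT3ABKO the counts were 10, 9 and 9 of 10, against 28.9%, 33.4% and 43.9% of all genes. Because the genes were chosen for this course, nothing is read from these counts. The median fitted change of the 10 genes from 0 h was -1.12 at 72 h and -3.06 at 144 h in KH, and -1.51 and -3.09 in DNMT3ABKO, on the log2(TPM + 1) scale. The medians over all genes tested were 0.08, 0.05, 0.12 and 0.05. From 72 h to 144 h the median of the 10 genes was -1.79 in KH and -1.73 in DNMT3ABKO, against -0.04 and -0.06 over all genes.

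**Figure D1:**
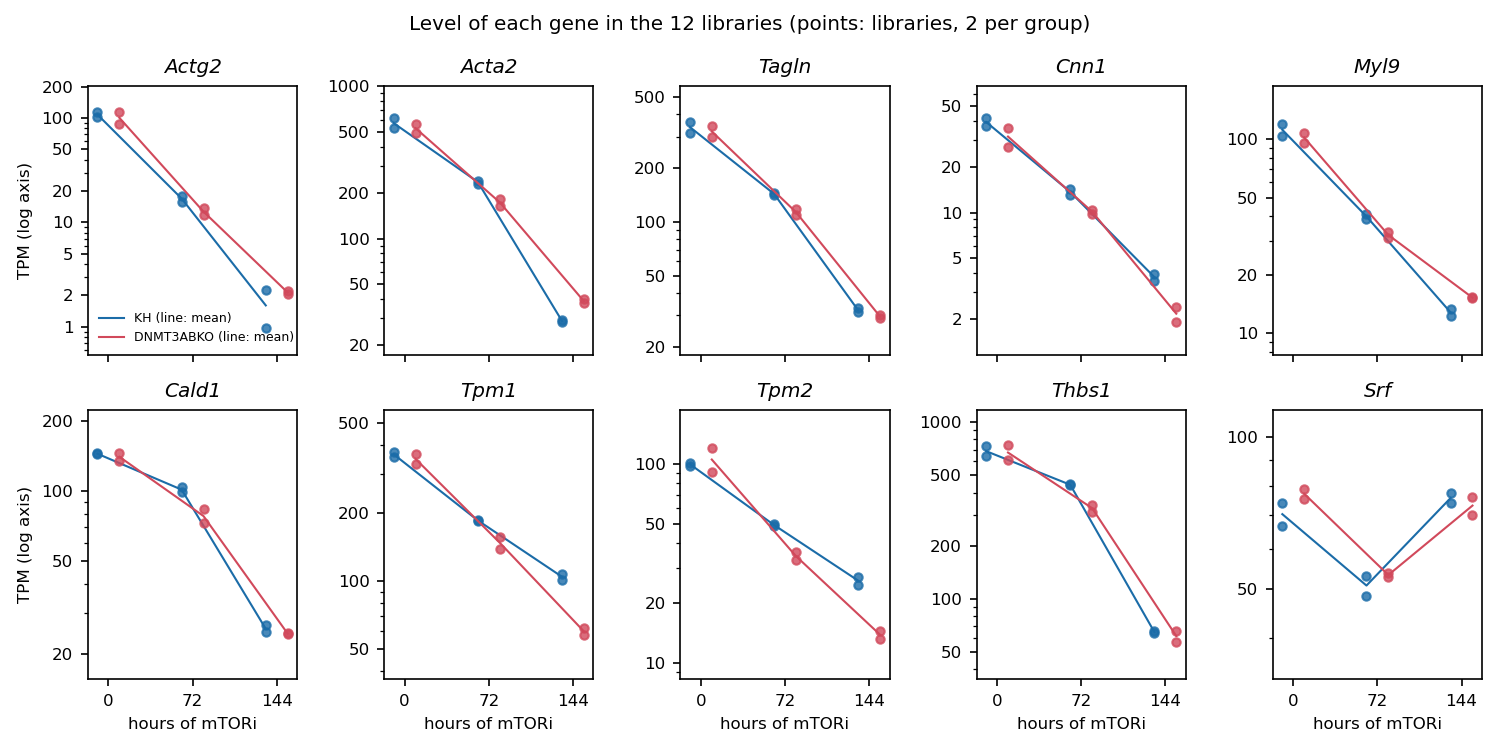
TPM of the 10 genes (log axis) against hours of mTORi in each of the 12 libraries, KH in blue and DNMT3ABKO in red, with lines through the means of 2 libraries. All but *Srf* step down at 72 h and again at 144 h in both lines, with *Actg2* ending at 0.965 to 2.24 TPM, while *Srf* dips at 72 h and stands at 70.1 to 77.3 TPM at 144 h.

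Of the 10 genes, *Actg2* kept the smallest share of its 0 h level at both later times in each line. *Actg2* (ENSMUSG00000059430.14, chr6:83512905-83536265 on mm10), the gamma actin of enteric smooth muscle, stood at 102 and 114 TPM in KH at 0 h, 15.8 and 18.03 TPM at 72 h and 0.965 and 2.24 TPM at 144 h. In DNMT3ABKO it stood at 88.0 and 113 TPM, then 13.7 and 11.7 TPM, then 2.21 and 2.06 TPM. The groups of different times did not overlap within either line, and the mean at 144 h was 1.49% of that at 0 h in KH and 2.12% in DNMT3ABKO. On the log2(TPM + 1) scale its fitted change from 0 h was -2.60 at 72 h and -5.43 at 144 h in KH, and -2.88 and -5.01 in DNMT3ABKO, each with an SE of 0.21. The step from 72 h to 144 h was -2.83 in KH and -2.12 in DNMT3ABKO. This scale understates falls near the floor, so the sizes of the 2 steps are not compared on it. Mean levels at 0 h, 72 h and 144 h were 108, 16.9 and 1.60 TPM in KH. In DNMT3ABKO the means were 100, 12.7 and 2.13 TPM.

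*Acta2* (ENSMUSG00000035783.8, chr19:34241090-34255336), the alpha actin of vascular smooth muscle and a standard mark of myofibroblasts, changed later. Its KH libraries held 529.8 and 615 TPM at 0 h, 241 and 229.9 TPM at 72 h and 28.5 and 29.1 TPM at 144 h. The DNMT3ABKO libraries held 494 and 567 TPM, 183 and 163 TPM, and 40.0 and 37.6 TPM. Times again did not overlap, and at 144 h the 2 DNMT3ABKO libraries lay above the 2 KH libraries, the reverse of 72 h. The fitted changes from 0 h were -1.28 and -4.26 in KH and -1.61 and -3.73 in DNMT3ABKO (SE 0.09), so that the second step, -2.99 in KH and -2.13 in DNMT3ABKO, was the larger of the 2 in both lines. The coding sequences of muscle actins are nearly identical, and how reads that fit several of them were divided is not given in the sources used here, so the levels of single muscle actins are uncertain to that extent.

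Among actin-binding proteins, *Tagln* (ENSMUSG00000032085.5, chr9:45929619-45936058), which encodes the filament-bundling protein transgelin or SM22 alpha, stood at 316 and 363 TPM in KH at 0 h, 142 and 145 TPM at 72 h and 32.8 and 31.1 TPM at 144 h. DNMT3ABKO held 298 and 344 TPM, 118 and 109 TPM, and 29.98 and 29.0 TPM. Both lines ended near the same share of their starting level, 9.42% and 9.18%. *Cnn1* (ENSMUSG00000001349.5, chr9:22099216-22109630), the basic calponin that restrains actomyosin ATPase, held 37.2 and 41.6 TPM at 0 h, 14.3 and 13.0 TPM at 72 h and 3.95 and 3.57 TPM at 144 h in KH. In DNMT3ABKO it held 27.0 and 36.2 TPM, 9.81 and 10.4 TPM, and 1.91 and 2.41 TPM. The DNMT3ABKO libraries of *Cnn1* lay below the KH libraries at every time, and the share of the 0 h level kept at 144 h was 9.52% in KH and 6.83% in DNMT3ABKO.

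*Cald1* (ENSMUSG00000029761.16, chr6:34598500-34775473), which encodes caldesmon, an inhibitor of actomyosin in smooth muscle and a stabiliser of filaments elsewhere, was nearer to its 0 h level at 72 h than the other actin-binding genes. It ranged from 134.6 to 146.1 TPM over the 4 libraries at 0 h, from 72.8 to 104 TPM at 72 h and from 24.3 to 26.4 TPM at 144 h. Its mean at 72 h was 70.1% of the 0 h level in KH and 55.6% in DNMT3ABKO, and at 144 h it was 17.7% and 17.4%. *Myl9* (ENSMUSG00000067818.6, chr2:156775420-156781658), a regulatory light chain of smooth muscle and nonmuscle myosin II, ranged from 95.7 to 119.6 TPM at 0 h, from 30.9 to 41.2 TPM at 72 h and from 12.3 to 15.3 TPM at 144 h. At 144 h *Myl9* kept 11.5% of its 0 h level in KH and 15.0% in DNMT3ABKO.

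The 2 tropomyosins, coiled-coil proteins that lie along actin filaments and set their access to myosin, kept more of their 0 h level at 144 h in KH than the other contractile genes. *Tpm1* (ENSMUSG00000032366.15, chr9:67022590-67049406) held 356 and 374 TPM in KH at 0 h, 184 and 188 TPM at 72 h and 101 and 108 TPM at 144 h. Its DNMT3ABKO libraries held 367 and 329 TPM, 158 and 139 TPM, and 57.9 and 62.2 TPM. The lines overlapped at 0 h and had separated by 144 h, when *Tpm1* kept 28.7% of its 0 h level in KH and 17.3% in DNMT3ABKO.

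*Tpm2* (ENSMUSG00000028464.16, chr4:43514711-43523765) followed the same course at a lower level. It held 102 and 98.2 TPM in KH at 0 h, 49.99 and 48.8 TPM at 72 h and 24.7 and 27.2 TPM at 144 h. DNMT3ABKO held 120.1 and 90.8 TPM, 36.2 and 32.8 TPM, and 14.5 and 13.2 TPM. Here too the lines overlapped at 0 h and did not at 72 h or 144 h, and the share kept at 144 h was 26.0% in KH and 13.2% in DNMT3ABKO.

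*Thbs1* (ENSMUSG00000040152.8, chr2:118111876-118127133) encodes thrombospondin 1, a matricellular glycoprotein that binds cell-surface receptors and can activate latent TGF-beta. Its KH libraries held 642 and 731 TPM at 0 h, 447 and 439 TPM at 72 h and 65.6 and 64.5 TPM at 144 h. In DNMT3ABKO they held 608 and 740.2 TPM, 342 and 311 TPM, and 66.3 and 57.3 TPM. Most of its change came after 72 h, with a first step of -0.63 and a second of -2.75 in KH and of -1.04 and -2.39 in DNMT3ABKO on the log2(TPM + 1) scale.

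*Srf* (ENSMUSG00000015605.6, chr17:46548329-46556175) did not share the course of the other 9 genes. It stood at 66.6 and 73.9 TPM in KH at 0 h, 53.0 and 48.5 TPM at 72 h and 74.0 and 77.3 TPM at 144 h. The DNMT3ABKO libraries held 78.9 and 75.3 TPM, 52.8 and 53.6 TPM, and 76.0 and 70.1 TPM. In both lines the 72 h libraries lay below those of 0 h and of 144 h, and the mean at 144 h was 108% of the 0 h level in KH and 94.7% in DNMT3ABKO. The fitted change from 0 h was -0.46 at 72 h and 0.11 at 144 h in KH, and -0.53 and -0.08 in DNMT3ABKO (SE 0.08), and the step from 72 h to 144 h was 0.57 and 0.45.

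Among actins, transgelins, calponins, myosin light chains and tropomyosins, the genes described here kept less of their 0 h level at 144 h than their tested relatives. *Acta1* and *Thbs2* fell by amounts within the range of the smooth muscle genes. Levels are per gene and do not separate the forms that 1 gene can encode. Of 16 family genes outside the 10, 14 could be tested (the others, *Actc1* and *Thbs4*, had a mean under 1 TPM). Of these 14, 9 fell and 0 rose at 72 h in KH, where 19.5% of all genes fell and 28.3% rose, and 9 fell and 0 rose at 144 h, where 23.9% fell and 27.4% rose. In DNMT3ABKO 8 fell and 1 rose at 72 h (21.6% and 34.3% of all genes) and 9 fell and 0 rose at 144 h (26.2% and 31.4%). Their median change at 144 h was -0.28 in KH and -0.38 in DNMT3ABKO. These shares of all genes also apply to the counts of every list below at 72 h and 144 h against 0 h. All lists were chosen with earlier results of these data known, so their counts over time are a description and no independent support.

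The cytoplasmic actins *Actb* and *Actg1*, which every cell carries, showed fitted changes at 144 h of -0.25 and -0.15 in KH and of 0.02 and 0.14 in DNMT3ABKO, and of these only that of *Actb* in KH passed the test. The skeletal actin *Acta1* fell by 2.55 in KH and by 2.58 in DNMT3ABKO at 144 h, from 10.01 to 12.2 TPM at 0 h over both lines to 0.939 to 1.10 TPM. *Tagln2*, the transgelin of many nonmuscle cells, fell by 0.31 in KH, and in DNMT3ABKO its change of -0.05 did not pass. Neither calponin *Cnn2* nor *Cnn3* approached the drop of *Cnn1*: *Cnn2* fell by 0.58 and 0.39, and the changes of *Cnn3*, 0.26 and 0.15, did not pass.

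At 144 h in KH and DNMT3ABKO, *Tpm3* changed by -0.45 and -0.53 and *Tpm4* by -1.38 and -1.46, beside -1.79 and -2.51 for *Tpm1* and -1.91 and -2.83 for *Tpm2*. The myosin light chain *Myl6* fell by 0.24 and 0.23 and *Myl12a* by 0.71 and 0.37, while the changes of *Myl12b*, -0.09 and 0.02, did not pass. *Thbs2*, a thrombospondin of connective tissue, changed by -3.27 and -3.64, and *Thbs1* by -3.38 and -3.42. *Tagln3* and *Thbs3*, both under 11 TPM in every library, changed by 0.10 and 0.02 in KH, which did not pass, and fell by 0.77 and 0.74 in DNMT3ABKO.

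**Figure D2:**
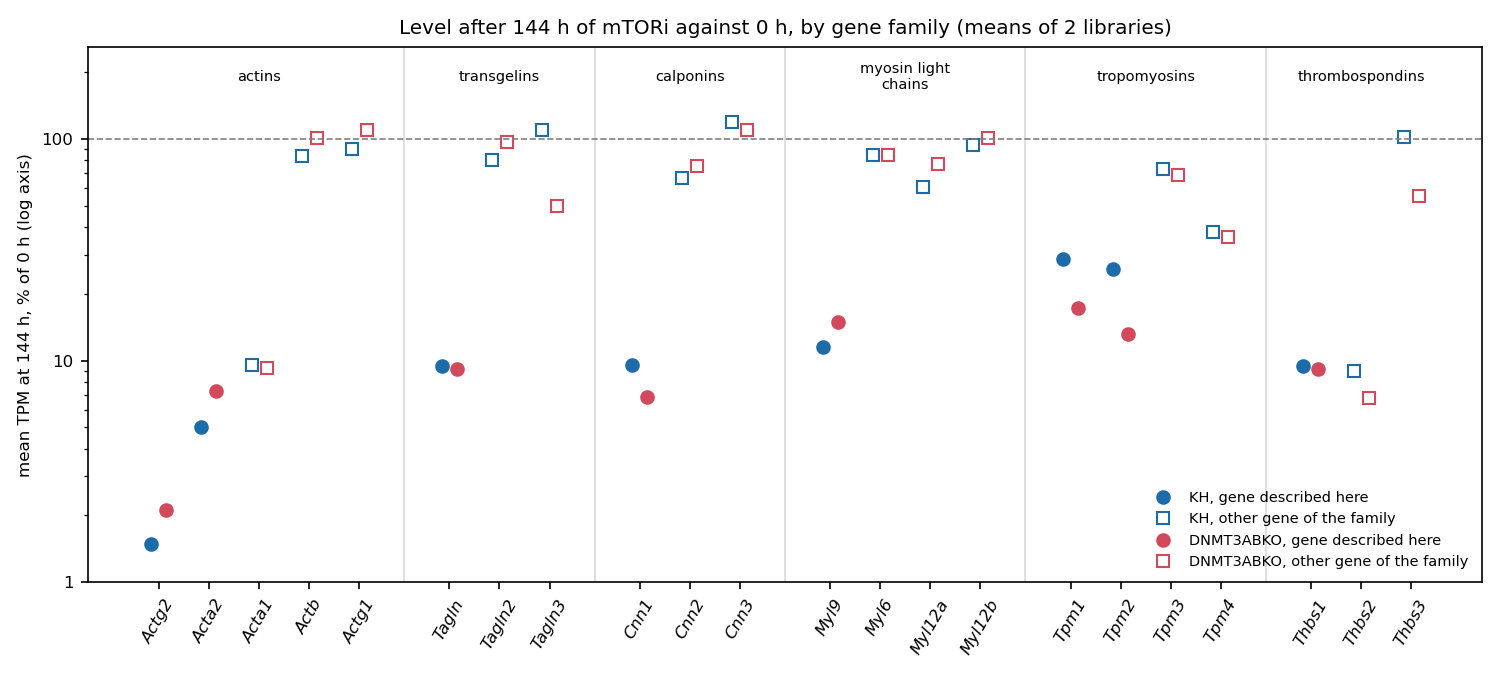
Mean TPM at 144 h as a percentage of that at 0 h (log axis) for the genes of 6 families, filled circles for the genes described here and open squares for the others, KH in blue and DNMT3ABKO in red. *Actg2* (1.49% and 2.12%) and *Acta2* (5.03% and 7.32%) sit far under *Actb* and *Actg1*, which lie near the dashed line at 100%, and *Acta1* and *Thbs2* sit with the smooth muscle genes.

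Other genes of mature smooth muscle were low, and apart from *Smtn* the highest value in any library was 8.16 TPM (*Des*). Of 8 such genes, 5 could be tested. Of these, 4 fell and 1 rose at both 72 h and 144 h in each line: at 144 h *Lmod1* (leiomodin, an actin nucleator) fell by 2.39 in KH and by 2.24 in DNMT3ABKO, *Mylk* (myosin light chain kinase) by 2.32 and 1.77, *Myh11* (smooth muscle myosin heavy chain) by 2.25 and 2.15 and *Des* (desmin) by 1.15 and 2.09. *Smtn* (smoothelin), named after its values were seen, rose by 0.67 and 0.74. These changes are on the log2(TPM + 1) scale, which understates falls at such low levels. As mean TPM at 144 h, *Lmod1* kept 4.89% of its 0 h level in KH and 6.32% in DNMT3ABKO. *Mylk* kept 3.90% and 12.4%, *Myh11* 3.79% and 4.91% and *Des* 37.6% and 13.7%. The highest library of *Myh11* held 4.82 TPM, and *Myocd*, which encodes the smooth muscle coactivator myocardin, reached at most 0.256 TPM, with the highest library of *Kcnmb1* at 0.195 TPM and that of *Synpo2* at 0.839 TPM. Smooth muscle here names the genes and not a cell type in these cultures. Of 7 striated muscle markers, 3 could be tested, of which 2 rose and 0 fell at 144 h in KH (*Ttn* by 1.32 and *Actn2* by 0.31), and 2 rose and 1 fell in DNMT3ABKO. *Myod1* and *Myog* stayed under 0.15 TPM.

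The SRF pathway outside the 10 genes did not move as 1 block. Of 18 cytoskeletal genes known to respond to SRF and the MRTFs, 10 fell and 3 rose at 72 h in KH and 12 fell and 0 rose at 144 h, with medians of -0.32 and -0.39 on the log2(TPM + 1) scale. In DNMT3ABKO 10 fell and 2 rose at 72 h, and 11 fell and 2 rose at 144 h (medians -0.37 and -0.54). Of all genes in KH, 19.5% fell and 28.3% rose at 72 h, and 23.9% fell and 27.4% rose at 144 h. In DNMT3ABKO 21.6% fell and 34.3% rose at 72 h, and 26.2% fell and 31.4% rose at 144 h. The deepest changes in KH at 144 h were those of LIM proteins of the focal adhesion and Z-line type, *Fhl2* (-2.54), *Tgfb1i1* (-2.17), *Csrp1* (-2.15) and *Fhl1* (-1.84). In DNMT3ABKO these 4 changed by -2.47, -2.15, -2.48 and -1.43, and each passed the test.

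Immediate early genes, the other class of SRF targets, ran against the contractile genes at 72 h. Of 9, 7 rose and 0 fell at 72 h in KH and 9 rose and 0 fell in DNMT3ABKO. From 72 h to 144 h, 7 of 9 fell and 0 rose in each line, where 15.6% of all genes fell and 7.24% rose in KH and 18.5% fell and 8.81% rose in DNMT3ABKO. At 144 h against 0 h, 5 fell and 2 rose in KH, and 2 fell and 6 rose in DNMT3ABKO. *Fosb* fell by 1.57 in KH and by 1.41 in DNMT3ABKO, and *Fos* by 0.72 and 0.38. *Egr2* fell by 0.97 in KH, and its change of -0.17 in DNMT3ABKO did not pass. *Egr1*, a zinc finger factor induced by growth factors, fell by 0.76 in KH and rose by 0.47 in DNMT3ABKO, a difference between the lines of 1.22 that passed the test (limma, adjusted p = 0.000269).

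Of the 5 genes of SRF cofactors, 0 rose and 1 fell (*Elk3*) at 72 h in each line, where 19.5% of all genes fell in KH and 21.6% in DNMT3ABKO. At 144 h 2 fell and 0 rose in KH (23.9% of all genes fell), and 3 fell and 1 rose in DNMT3ABKO (26.2% fell and 31.4% rose). *Elk3*, which encodes a ternary complex factor that can repress SRF targets, fell by 1.58 in KH and 1.63 in DNMT3ABKO. *Mrtfa*, an actin-sensing coactivator, fell by 0.49 and 0.40, and *Mrtfb* showed changes of 0.25 and 0.18 that did not pass.

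The matricellular and mechanosensitive genes that SRF shares with YAP had all fallen by 144 h. Of 5, 2 fell at 72 h and 5 at 144 h in KH, and 3 and then 5 fell in DNMT3ABKO, and none rose. At 144 h *Ankrd1* fell by 3.20 in KH and by 2.83 in DNMT3ABKO, *Ccn2* (connective tissue growth factor) by 1.64 and 1.99 and *Ccn1* by 1.46 and 1.72. At 72 h *Ccn1* and *Ccn2* had changes of -0.17 and 0.04 in KH, which did not pass.

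TGF-beta ligands are known inducers of *Acta2* and *Tagln* in fibroblasts. Of 7 genes of this pathway, 5 fell and 2 rose at 72 h in KH and 5 fell and 1 rose at 144 h, and in DNMT3ABKO 5 fell and 1 rose at both times. Of all genes, 19.5% and 23.9% fell at these times in KH and 21.6% and 26.2% in DNMT3ABKO. The shares that rose were 28.3% and 27.4% in KH and 34.3% and 31.4% in DNMT3ABKO. *Tgfb3* fell by 2.89 in KH and 2.69 in DNMT3ABKO at 144 h, the receptor *Tgfbr2* by 2.06 and 2.24, *Tgfb1* by 1.62 and 1.07 and *Tgfb2* by 1.15 and 1.83.

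**Figure D3:**
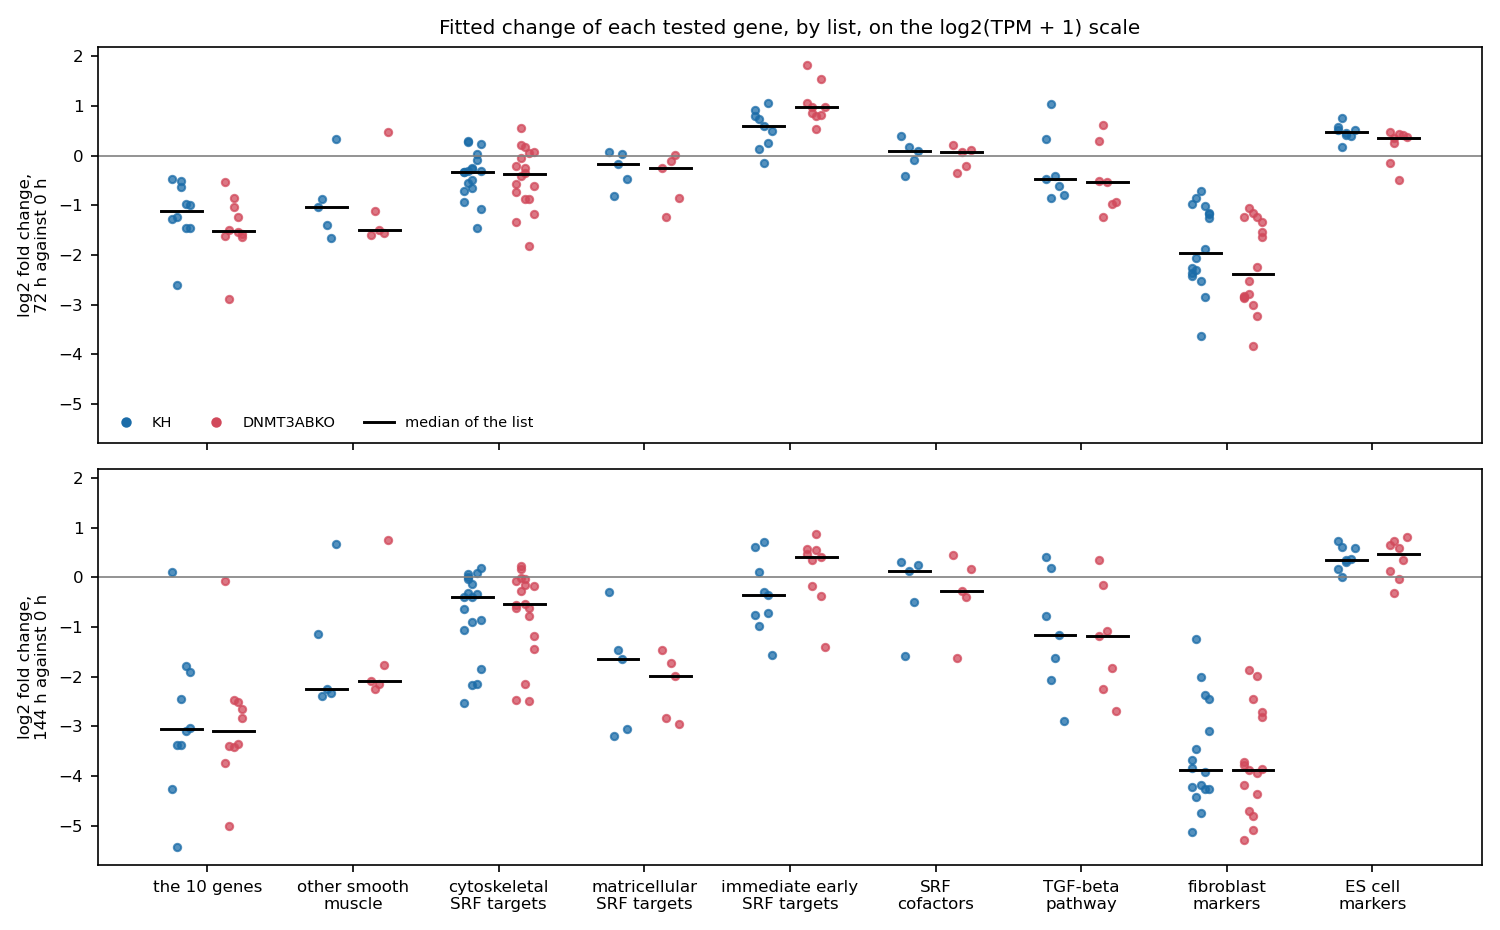
Fitted log2 fold change of each tested gene against 0 h on the log2(TPM + 1) scale, at 72 h (top) and 144 h (bottom), KH in blue and DNMT3ABKO in red, with a black bar at the median of each list. At 144 h the medians are -3.06 and -3.09 for the 10 genes, -0.39 and -0.54 for cytoskeletal SRF targets and -3.87 and -3.87 for fibroblast markers, and those of ES cell markers lie above 0.

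Fibroblast markers moved together with the contractile genes over time. Of the 18, 16 could be tested, and 16 fell and 0 rose at both 72 h and 144 h in each line. Of all genes, 19.5% and 23.9% fell at these times in KH and 21.6% and 26.2% in DNMT3ABKO. The marker lists were chosen with earlier results of these data known, so these counts are a description. Their medians were -1.97 and -3.87 in KH and -2.38 and -3.87 in DNMT3ABKO, each deeper than the median of the 10 genes in the same comparison. *Col1a1* and *Col3a1*, defining collagens of fibroblasts, changed by -5.12 and -4.75 in KH and by -5.28 and -5.10 in DNMT3ABKO, *Col1a2* by -4.42 and -4.70 and *Postn* (periostin) by -4.27 and -4.37, each past the test. No fibroblast marker was at 0 in any of the 12 libraries. Macrophage markers summed to 251 to 268 TPM in KH and 213 to 239 TPM in DNMT3ABKO at 0 h, to 170.2 to 175 and 115 to 121 TPM at 72 h, and to 20.8 to 21.0 and 35.5 to 36.7 TPM at 144 h. At 144 h 8 of 8 fell in KH, among them *Lyz2*, *Tyrobp*, *Cd14* and *Adgre1*, and 7 of 8 did in DNMT3ABKO. Of 8 ES cell markers, 6 rose and 0 fell at 144 h in KH (*Dppa5a*, *Esrrb*, *Sox2* and *Pou5f1* among them), and 5 rose and 1 fell in DNMT3ABKO. The part of feeder fibroblasts, or of any other cell type, in the level of the 10 genes was not tested.

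Relative to the summed fibroblast markers of the same library, the 10 genes diverged. *Actg2* was 7.002% ± 0.217 (SD, n = 2) of that sum in KH at 0 h, 4.01% ± 0.431 at 72 h and 1.99% ± 1.18 at 144 h, and 5.74%, 3.68% and 2.53% in DNMT3ABKO, so that it was lower at later times on this scale too. *Acta2* stood at 37.2%, 55.6% and 35.5% in KH and at 30.3%, 50.3% and 46.1% in DNMT3ABKO. *Thbs1* stood at 44.6%, 105% and 80.2% in KH, with 38.5%, 95.0% and 73.2% in DNMT3ABKO. *Tagln*, *Myl9* and *Cald1* were all higher at 144 h than at 0 h on this scale, at 39.4%, 15.8% and 31.5% in KH against 22.1%, 7.25% and 9.42%. *Cnn1* stood at 2.56%, 3.23% and 4.63% in KH and at 1.81%, 2.96% and 2.57% in DNMT3ABKO.

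*Tpm1* showed a wide gap between the lines at 144 h on the fibroblast scale, with 23.7%, 44.0% and 129% in KH and 19.9%, 43.1% and 71.3% in DNMT3ABKO. *Tpm2* had 6.51%, 11.7% and 32.0% in KH and 6.01%, 10.03% and 16.5% in DNMT3ABKO. *Srf*, whose own TPM changed least, went from 4.57% to 93.4% in KH and from 4.40% to 86.6% in DNMT3ABKO.

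**Figure D4:**
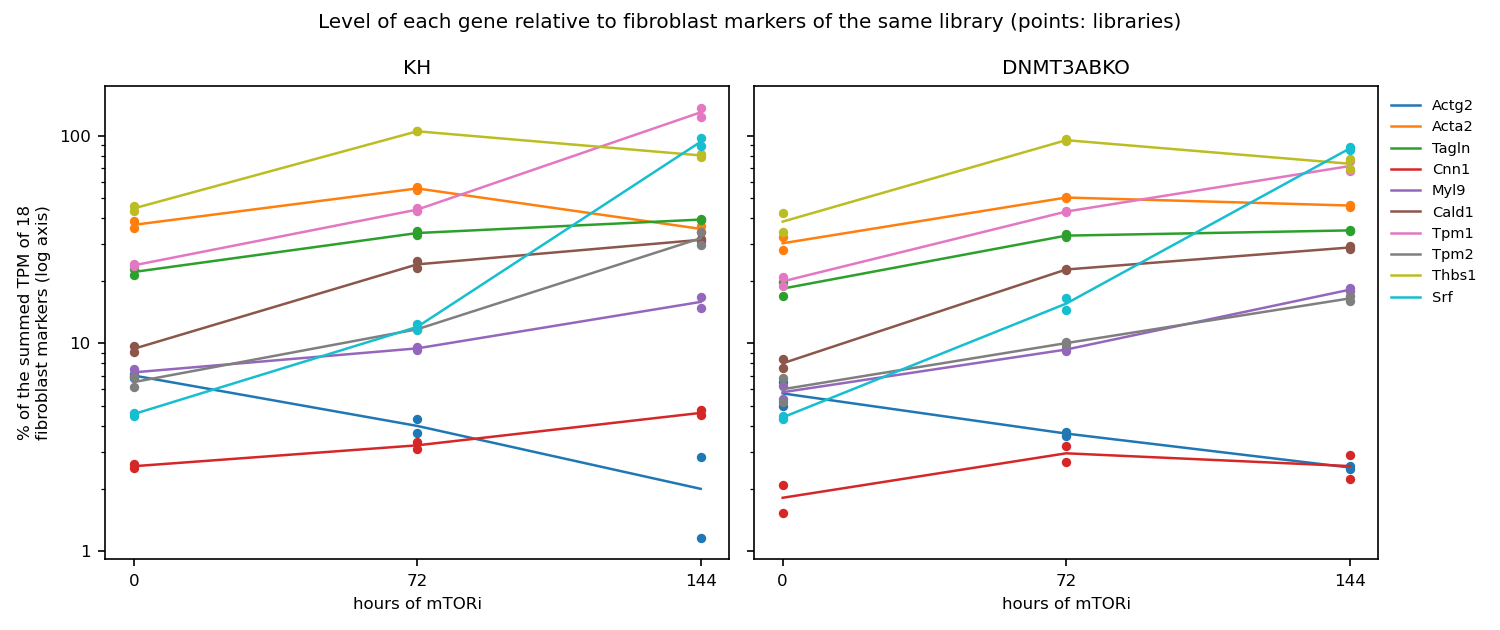
Level of each of the 10 genes as a percentage of the summed TPM of 18 fibroblast markers in the same library (log axis) against hours of mTORi, KH left and DNMT3ABKO right, points for libraries and lines for means. *Actg2* goes from 7.002% to 1.99% in KH, and *Tpm1* reaches 129% in KH and 71.3% in DNMT3ABKO at 144 h.

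The comparison of the lines asks whether the absence of Dnmt3a and Dnmt3b goes with another level of these genes. At 0 h none of the 10 genes passed the test (limma, adjusted p under 0.05), where 9.06% of all genes did in either direction. At an unadjusted p under 0.05, 1 of 10 did, and the share of all genes at that cutoff was not computed. The largest difference was that of *Cnn1*, -0.32 ± 0.14 (SE) on the log2(TPM + 1) scale (limma, adjusted p = 0.188), and the other 9 lay between -0.13 and 0.13. That no gene passed rested on 1 library of the group with the widest spread. Without the second untreated DNMT3ABKO replicate, 2 of 10 passed, 1 higher and 1 lower.

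At 72 h, 7 of the 10 genes were lower in DNMT3ABKO and 0 were higher, where 19.3% of all genes passed in either direction (1573 lower and 1456 higher). *Acta2* was at 73.6% of the KH mean (-0.44 ± 0.09, limma adjusted p = 0.00897), *Cald1* at 77.0% (-0.38 ± 0.08, adjusted p = 0.00840) and *Tpm2* at 69.8% (-0.51 ± 0.12, adjusted p = 0.0142). *Thbs1*, *Tpm1*, *Tagln* and *Myl9* were lower by 0.31 to 0.44 on the log2 scale, with limma adjusted p between 0.0178 and 0.0396. The 2 DNMT3ABKO libraries lay below both KH libraries for each of these 7 genes. *Cnn1* (-0.40 ± 0.14, adjusted p = 0.0742), *Actg2* (-0.39 ± 0.21, adjusted p = 0.225) and *Srf* (0.07 ± 0.08, adjusted p = 0.586) did not pass by limma.

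The number of calls at 72 h depended on single libraries. It was 0 of 10 without the second DNMT3ABKO replicate, 1 of 10 without either KH replicate and 5 of 10 without the first DNMT3ABKO replicate, and 4 of 10 with no filter on low values, though every one of the 7 kept its direction. Other cell type markers moved with this difference. The summed fibroblast markers were lower in DNMT3ABKO, with 14 of 16 below KH, a median of -0.20 and 1 called, and 7 of 8 macrophage markers were called lower. Of the 8 ES cell markers, 7 were below KH, with a median of -0.23, and 4 were called lower. Relative to the fibroblast sum, *Acta2* (55.6% and 50.3%), *Thbs1* (105% and 95.0%) and *Tpm1* (44.0% and 43.1%) differed less between the lines than in TPM. The part of these markers in the difference was not tested.

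At 144 h, 4 of the 10 genes differed between the lines. *Tpm1*, *Tpm2* and *Cnn1* were lower and *Acta2* was higher in DNMT3ABKO, where 15.5% of all genes were lower and 11.0% higher. *Tpm1* was at 57.3% of the KH mean (-0.79 ± 0.08, limma adjusted p = 7.7e-05) and *Tpm2* at 53.5% (-0.86 ± 0.12, adjusted p = 0.000556). *Cnn1* was at 57.5% (-0.59 ± 0.14, adjusted p = 0.0110) and *Acta2* at 135% (0.42 ± 0.09, adjusted p = 0.00909), both by limma. In all 4 the 2 libraries of each line did not overlap.

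The calls of *Tpm1* and *Tpm2* held under all 10 alternatives tried. Those of *Acta2* and *Cnn1* were each lost under 2, and only 2 of the 10 genes were called without the first KH replicate or without the first DNMT3ABKO replicate. The summed fibroblast markers of the lines overlapped at 144 h, macrophage markers were higher in DNMT3ABKO (4 of 8 called), and the nearest relatives *Tpm3* and *Tpm4* had differences of -0.07 (limma adjusted p = 0.444) and -0.09 (adjusted p = 0.569). The other 6 genes, *Actg2*, *Tagln*, *Myl9*, *Cald1*, *Thbs1* and *Srf*, had differences between -0.11 and 0.31 and did not pass.

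**Figure D5:**
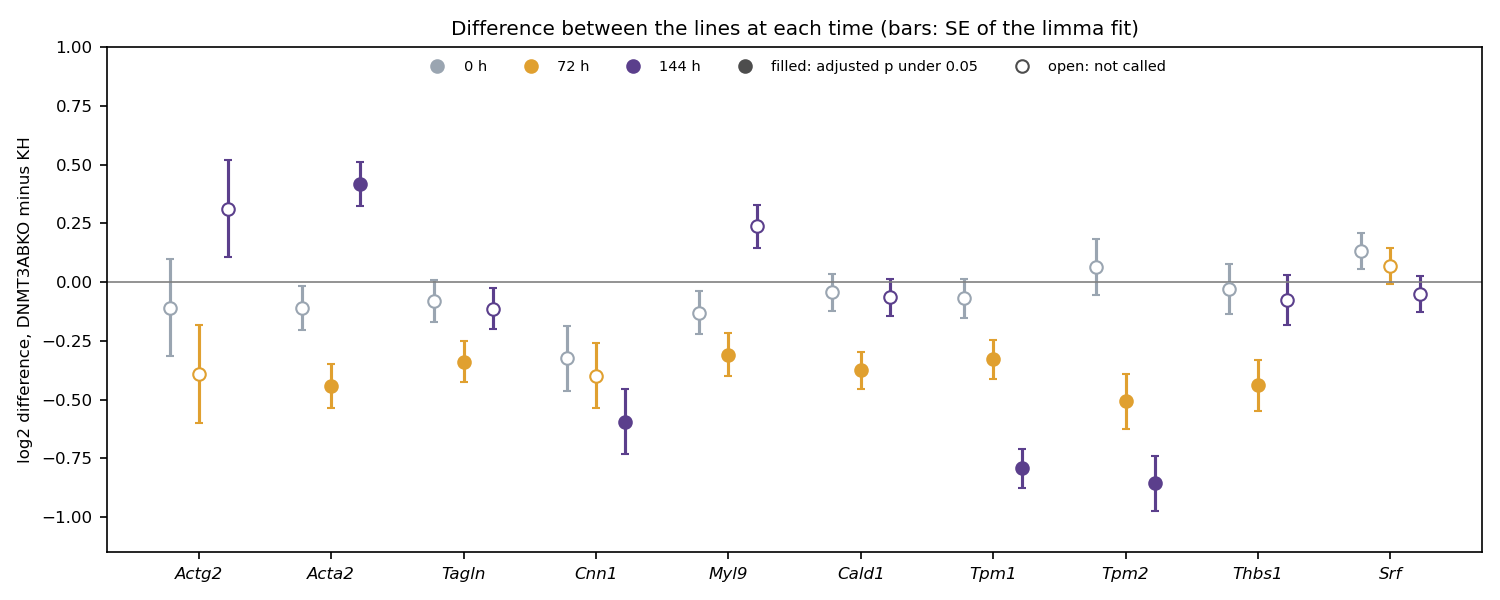
Fitted log2 difference, DNMT3ABKO minus KH, of each gene at 0 h (grey), 72 h (orange) and 144 h (purple), with bars for the SE of the limma fit and filled points where the adjusted p is under 0.05. All 7 called genes lie below 0 at 72 h with filled points, and at 144 h *Tpm1* (-0.79), *Tpm2* (-0.86) and *Cnn1* (-0.59) lie below and *Acta2* (0.42) above.

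Whether the response to mTORi itself differed between the lines was tested as an interaction. For the 72 h response 0 of 10 genes passed by limma at an adjusted p under 0.05, where 5.23% of all genes did in either direction. At an unadjusted p under 0.05, 4 of 10 did. The share of all genes at that unadjusted cutoff was not computed, so such counts have no background here. All 10 estimates were below 0, from -0.57 (*Tpm2*, limma adjusted p = 0.0886) to -0.06 (*Srf*, adjusted p = 0.816). These 10 estimates share the same 8 libraries and are not independent. The median was -0.27 for the 10 genes and -0.39 for the fibroblast markers, of which 16 of 16 were below 0 and 0 passed, with 10 of 16 at an unadjusted p under 0.05. Of the 8 macrophage markers 7 were below 0, and 1 passed. The part of these markers in the estimates was not tested. After rescaling of each library by its median ratio, 3 of 10 passed.

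For the 144 h response 3 of 10 passed, 2 lower and 1 higher in DNMT3ABKO, where 3.70% of all genes were lower and 4.89% higher. The change of *Tpm2* was larger in DNMT3ABKO by -0.92 ± 0.17 (limma, adjusted p = 0.00753) and that of *Tpm1* by -0.72 ± 0.12 (adjusted p = 0.00371), and both calls held under all 14 alternatives tried. The change of *Acta2* was smaller in DNMT3ABKO, by 0.53 ± 0.13 (limma, adjusted p = 0.0365), a call lost under 9 of the 14. *Tpm3* and *Tpm4* had interaction estimates of -0.08 and -0.07 that did not pass. Among the other lists, the genes that passed with a lower response in DNMT3ABKO were *Amotl2* (-1.154), *Des* (-0.94), *Lima1* (-0.87), *Tagln3* (-0.87), *Ttn* (-0.78), *Thbs3* (-0.76) and the fibroblast marker *Mmp2* (-0.63). With a higher response, *Actn2* (0.65), 4 of 9 immediate early genes and 3 of 8 macrophage markers passed. *Amotl2*, *Lima1* and *Mmp2* are named after their values were seen.

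As a description, the 5 genes most like *Actg2* over the 12 libraries on the log2(TPM + 1) scale included *Myl9* (Pearson r = 0.997), *Timp2* (0.996), *Ephx1* (0.996) and *Serpinf1* (0.995). The genes most like *Srf* were *Igf2bp2* (0.954), *Camkv* (0.953), *Rbm38* (0.952), *Slc2a1* (0.949) and *Pfkp* (0.944). All of these values rest on the same 12 libraries in 6 groups, so a course shared over 3 times is enough to bring a high r.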

How the data were processed

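RNA of cells sorted as living single cells, with no ES cell marker named for the sort, was depleted of ribosomal RNA, spiked with ERCC RNA and sequenced. The authors trimmed reads with cutadapt 2.4, aligned them to mm10 with STAR (2.7.3a per the labels) and estimated gene levels with StringTie (2.0 per the labels) on GENCODE VM19, and the deposited values are TPM per gene and library, with no filter. Between 9 and 16 gene rows per table repeated a gene identifier, and their TPM were summed. No ERCC rows were found in the tables, so values are shares of each library and not amounts per cell, depth is unknown, and whether strand was used is not given in the sources used here. TPM are not counts, so no count test was run.

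Levels were tested with limma 3.58.1 (R 4.3.3) on log2(TPM + 1), with genes of mean TPM of at least 1 (15727), 1 model over 6 groups of 2 libraries, a trended prior variance and Benjamini-Hochberg adjustment over all tested genes, called at 0.05. A fold change on this scale understates that of low genes. Every one of 11 contrasts came from it; those that share a control group are not independent. The 10 genes and all gene lists were chosen with earlier results of these data known. All 10 are named, with at most 4 called genes of every other list (those with the largest change in KH at 144 h against 0 h), all family relatives, and the 5 genes most correlated with Actg2 and with Srf, unnamed predicted genes left out. Some genes that this rule names are not reported here. Genes named outside this rule are said to be so or illustrate an untested marker. The alternatives tried were 0.1 TPM as pseudocount, all 37364 genes above 0 in any library, median-ratio rescaling, a model of the compared groups alone, replicate blocks within lines and, added after seeing the data, across lines, and leaving out each library.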

Additional observations from a re-analysis of the deposited data

Results flagged for a closer look

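The values of 3 genes were picked out because the response to 144 h of mTORi differed between the lines by a test of the difference itself (limma interaction on log2(TPM + 1), n = 2 libraries per group). *Tpm2* was -0.92 and *Tpm1* was -0.72, a deeper drop in DNMT3ABKO, and *Acta2* was 0.53, a shallower one. The calls of *Tpm1* and *Tpm2* held under all 14 alternatives, while that of *Acta2* was lost under 9, with adjusted p from 0.0063 to 0.13 (limma). At 144 h the 2 DNMT3ABKO libraries of both tropomyosins lay below the 2 KH libraries and those of *Acta2* above.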

How the results depend on the processing

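With 2 libraries per group the number of calls between the lines was the least stable quantity. Leaving out 1 library at a time gave 0 to 2 called genes at 0 h, 0 to 5 at 72 h and 2 to 5 at 144 h, and 0 to 1 and 2 to 4 for the line differences in the 72 h and 144 h responses. With no filter on low values 4 genes were called at 72 h, and after median-ratio rescaling 3 differed in the 72 h response. The cause was not tested. The median change of the 10 genes from 0 h kept its sign throughout. Leaving out 1 library it ran from -1.17 to -1.08 (72 h) and from -3.15 to -2.97 (144 h) in KH and from -1.52 to -1.36 and from -3.12 to -3.04 in DNMT3ABKO, and from 72 h to 144 h from -1.84 to -1.76 and from -1.76 to -1.67. Rescaling gave -1.22 (KH 72 h), -1.64 and -3.15 (DNMT3ABKO 72 h and 144 h) and, for the later step, -1.73 and -1.66. A pseudocount of 0.1 TPM gave -3.23 and -3.17 at 144 h and -1.91 and -1.805 for the later step.

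Where a difference reversed, the reversed value was small, and the gene was called neither in the main fit nor in that setting. The ranges below span all the libraries left out, so their other end can be larger, as for *Actg2* at 144 h (0.67). Rescaling turned *Cald1* (0.0181) and *Thbs1* (0.0326) at 0 h and *Srf* (0.0011) at 144 h. Leaving out 1 library, the 0 h differences ran from -0.18 to 0.0211 for *Tagln*, -0.17 to 0.11 for *Thbs1*, -0.14 to 0.26 for *Tpm2*, -0.10 to 0.0145 for *Cald1*, -0.29 to 0.0695 for *Actg2* and -0.15 to 0.01 for *Tpm1*. At 144 h they ran from -0.0493 to 0.67 for *Actg2*, -0.11 to 0.0076 for *Srf* and -0.18 to 0.0265 for *Thbs1*. For the 72 h response *Cnn1* ran from -0.28 to 0.13 and *Srf* from -0.14 to 0.0098, and for the 144 h response *Tagln* from -0.13 to 0.0691, *Thbs1* from -0.19 to 0.0945 and *Cald1* from -0.0788 to 0.0384.

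Replicate numbers are shared by all groups. The study states that the time points of a biological replicate were processed in parallel. The replicate differences of pairs of groups within a line correlated over genes at -0.104 to 0.10. Those of the 2 lines at the same time correlated at 0.336 (0 h), -0.064 (72 h) and 0.039 (144 h). The 0 h value stood above all the others, and a replicate effect shared by the untreated groups was not tested by itself. The main model did not pair libraries by number. Blocking on the replicate number in each line left 0, 5 and 4 genes called between the lines at 0 h, 72 h and 144 h, and 0 and 2 in the 2 responses. *Tagln* and *Myl9* at 72 h and *Acta2* in the 144 h response lost their calls under this block. A block on the number within each time across lines, chosen after seeing the data, left 0, 8 and 5 called, and 1 and 4 in the responses. Depth cannot be read from TPM, so the precision of genes at a few TPM, *Actg2* and *Cnn1* at 144 h among them, is known only from 2 libraries.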
